A study of Mus musculus with 11 samples.

Results

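Hsd3b7 and 6 other genes of oxysterol synthesis, breakdown and sensing were described in thymic epithelial cells of mice that carry a missense change in Aire. The 7 genes, Hsd3b7, Ch25h, Cyp7b1, Cyp27a1, Gpr183, Nr1h2 and Nr1h3, are 7 of the 56691 genes in the deposited table. They were picked because Hsd3b7 had been seen to be higher in both mutant genotypes, so the values of Hsd3b7 against wild type are given as a description without a test. Counts per gene came from 11 libraries of sorted EpCAM-positive, CD45-negative thymus cells of NOD mice aged 4 to 8 weeks, NOD being a strain prone to autoimmune diabetes. All animals share the NOD background, and the groups differ in the R249C change in the SAND domain of Aire, a nuclear protein that drives expression of tissue-restricted genes in medullary thymic epithelium. By title, 3 libraries were WT/WT, 5 were WT/R249C and 3 were R249C/R249C.

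Oxysterols are oxidised forms of cholesterol that act as signals. Ch25h and Cyp27a1 add a hydroxyl group to the side chain of cholesterol, Cyp7b1 adds another to the ring, and the product can bind Gpr183, a chemotactic receptor of lymphocytes and dendritic cells. Hsd3b7 oxidises that product and so ends its action on Gpr183. In lymph nodes and spleen, stromal cells that make these enzymes shape the ligand gradient that places B cells, T cells and dendritic cells. Nr1h3 and Nr1h2, the liver X receptors alpha and beta, are nuclear receptors that oxysterols activate and that switch on cholesterol export and lipid synthesis.

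Batch A, as the labels name it, held WT/WT replicate 1, WT/R249C replicates 1 to 3 and all R249C/R249C libraries, and batch B held WT/WT replicates 2 and 3 and WT/R249C replicates 4 and 5. The genotype field of WT/R249C replicates 4 and 5 reads R249C/R249C, against their titles, so fold changes over WT/WT are also given without these contested libraries; all mutant libraries are then in batch A and WT/WT replicate 1 is in effect the lone wild type. Library totals ran from 60560348 counts, in WT/R249C replicate 3, to 182319976, and between 22101 and 31180 genes had a count. Summed CPM (counts per 1000000 counts of the library) of 9 thymic epithelial markers ran from 4066 to 5940 in WT/WT, from 4854 to 6761 in WT/R249C and from 5308 to 7111 in R249C/R249C, with no marker at 0 in any library. Of these markers, 8 of 9 had a log2 fold change above 0 in each mutant genotype, with medians of 0.52 in R249C/R249C and 0.34 in WT/R249C. Aire itself ran from 174 to 858 CPM, and a count of the whole gene does not check a missense change. Summed CPM of 7 B cell markers ran from 804 to 1938 in WT/WT, from 92.2 to 336 in WT/R249C and from 208 to 371 in R249C/R249C. Summed CPM of 7 thymocyte markers ran from 146 to 209, from 75.8 to 158 and from 93.0 to 132 in the same order. Igkc, an immunoglobulin light chain, made up most of the B cell sum, at 734 to 1863 CPM in WT/WT and 69.2 to 341 CPM in mutant libraries. The other 6 B cell markers summed to 48.3 to 75.7 CPM in WT/WT, 17.4 to 53.2 in WT/R249C and 22.7 to 42.2 in R249C/R249C. Summed CPM of 7 fibroblast markers ran from 1433 to 2155, from 860 to 2008 and from 1236 to 2339. In WT/R249C 6 of 7 had a log2 fold change below 0, with a median of -1.60. Without the contested libraries 5 of 7 were below 0, with a median of -0.41. In R249C/R249C 5 of 7 fibroblast markers were above 0, with a median of 0.05, or 0.42 without the contested libraries. Summed markers of myeloid cells, dendritic cells and endothelium ran from 79.6 to 320, 47.8 to 110 and 58.2 to 284 CPM over all libraries. In edgeR 0 of the markers passed an adjusted p of 0.05. The part of these shifts in the results below was not tested. In sorted bulk RNA, fewer cells of a type and less RNA per cell cannot be told apart.

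In the reference annotation (GENCODE M21 on GRCm38, used for gene models only, since the counts were made on mm39), Hsd3b7 lies on the plus strand of chromosome 7. It shares exons with Gm49388, a protein-coding model on the same strand that starts in Setd1a, the neighbouring histone methyltransferase gene, and reads through into Hsd3b7. Of the 2769 exon bases of Hsd3b7, 1717 (62.0%) are also exon bases of Gm49388. The Hsd3b7 transcript of 7 exons and 1828 bases has 6 exons that are identical in Gm49388, and its own first exon is 111 bases long. The junction out of that first exon separates the models. The last 15 bases of the upstream exon are therefore shown in lower case and the first 15 bases of the shared exon in capitals. They are read 5′ to 3′ from the spliced transcript sequences of the reference annotation.
Hsd3b7, exon 1 to exon 2 of the 7-exon transcript: tgggacttactacagCTGGGCATGGCAGAC
Gm49388, exon 1 to exon 2 of the 5-exon transcript: gctccctcaactgagCTGGGCATGGCAGAC
Hsd3b7, exon 1 to exon 2 of the 5-exon, 473-base transcript: tgggacttactacagGTGGCTGCGGCTTCC
Gm49388, exon 13 to exon 14 of the 19-exon transcript: gctccctcaactgagGTGGCTGCGGCTTCC
The capitals are the same in the first pair of lines and in the second pair, and only the lower-case bases tell an Hsd3b7 start from a Setd1a start. The 19-exon Gm49388 transcript has 3523 bases in Setd1a exons and 1665 bases in Hsd3b7 exons, and none outside both. A short gap of 481 bases lies between the end of Setd1a and the start of Hsd3b7. Together with an antisense model, 9430064I24Rik, which covers 62.4% of the exon bases, 99.2% of the Hsd3b7 exon bases are shared with some other gene. How reads in shared exons were assigned, and whether strand was used, is not stated in the labels or notes used here, so each Hsd3b7 count is uncertain to that extent.

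The Hsd3b7 row was higher in both mutant genotypes than in WT/WT, by about the same amount in heterozygotes and homozygotes. Hsd3b7, which oxidises the ring of hydroxylated sterols in bile acid synthesis and in oxysterol breakdown, stood at 13.6, 7.60 and 13.1 CPM in WT/WT replicates 1 to 3. In WT/R249C replicates 1 to 5 it stood at 29.7, 21.1, 40.6, 42.6 and 54.1 CPM. In R249C/R249C replicates 1 to 3 it stood at 24.7, 31.8 and 36.9 CPM. Every mutant library was above every WT/WT library, and the mutant genotypes overlapped with each other. Group means were 11.4 ± 3.33 CPM in WT/WT (SD, n = 3), 37.6 ± 12.7 in WT/R249C (SD, n = 5) and 31.1 ± 6.13 in R249C/R249C (SD, n = 3). The raw counts behind these values ran from 938 to 5501, so counting error of reads alone was small beside the spread between libraries. Since reads carry no molecular identifiers, the error from sampling molecules is not known.

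The batch-adjusted log2 fold change of Hsd3b7 over WT/WT was 1.64 (SE 0.41) in R249C/R249C and 1.74 (SE 0.34) in WT/R249C. Both values share the same 3 WT/WT libraries. Across all genes tested, 3.42% were higher in every R249C/R249C library than in every WT/WT library, and 1.1% were higher in every WT/R249C library. Among the 7 oxysterol genes, 1 of 7, Hsd3b7, had groups that did not overlap in each of these comparisons. Since Hsd3b7 was picked on this contrast, nothing is read from that count. Within batch A, where WT/WT replicate 1 is the lone wild type, the log2 fold change was 1.19 in R249C/R249C and 1.11 in WT/R249C. Within batch B it was 2.27 in WT/R249C, a value that rests on the 2 libraries with contradictory labels. With those libraries left out it was 1.19 and 1.11, again set against WT/WT replicate 1 alone. Without WT/WT replicate 1 it was 2.40 and 2.27.

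**Figure D1:**
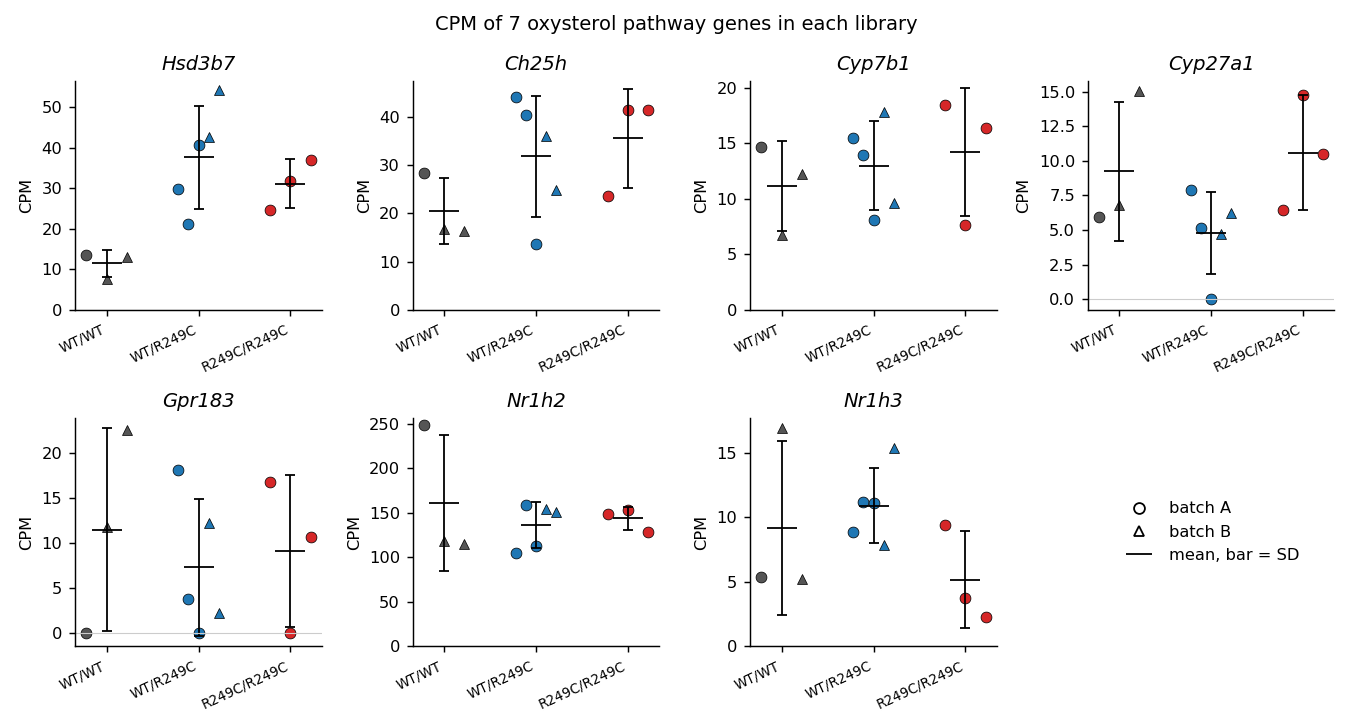
CPM of each of the 7 genes (y axis, linear, its own scale per gene) by genotype (x axis). Each point is a library, circles for batch A and triangles for batch B, and the line and bar give the mean and SD. Hsd3b7 is the gene whose WT/WT points, 7.60 to 13.6 CPM, all lie below the mutant points, 21.1 to 54.1 CPM. In the other panels WT/WT overlaps both mutant genotypes.

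The overlapping Gm49388 row tended to be low in the libraries where Hsd3b7 was high. Gm49388 stood at 13.3, 51.7 and 16.5 CPM in WT/WT replicates 1 to 3. It stood at 25.8, 40.5, 7.66, 1.07 and 0.950 CPM in WT/R249C replicates 1 to 5. In R249C/R249C it stood at 5.20, 20.98 and 0 CPM, where 0 counts allow up to 0.0326 CPM. The groups overlapped, with WT/WT replicate 2 the highest library and the lowest libraries all mutant. Hsd3b7 made up 50.6%, 12.8% and 44.3% of the counts of the pair in WT/WT. Its share of the pair was 53.5%, 34.2%, 84.1%, 97.6% and 98.3% in WT/R249C, and 82.6%, 60.2% and 100% in R249C/R249C. The division of counts between the rows thus differed from library to library, and WT/R249C replicate 2 is a mutant library with a share below that of WT/WT replicates 1 and 3. Across the 11 libraries log2(CPM + 1) of the rows had Pearson's r = -0.70 and Spearman's rho = -0.71, and r was -0.61 without WT/WT replicates 2 and 3, the libraries farthest from the median of Hsd3b7, and -0.40 in the 7 batch A libraries. These points share exons, libraries and depth, and the correlation is a description.

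When both rows were summed, the genotypes overlapped. The summed level was 26.9, 59.3 and 29.6 CPM in WT/WT replicates 1 to 3. It was 55.4, 61.5, 48.2, 43.6 and 55.1 CPM in WT/R249C, and 29.9, 52.8 and 36.9 CPM in R249C/R249C. WT/WT replicate 2 was above all but 1 of the mutant libraries, while WT/WT replicates 1 and 3 were below all of them. In batch A the lone WT/WT library was below all 6 mutant libraries, while in batch B the WT/WT libraries lay on either side of the WT/R249C libraries. Group means of the sum were 38.6 ± 18.02 CPM in WT/WT (SD, n = 3), 52.8 ± 6.95 in WT/R249C (SD, n = 5) and 39.9 ± 11.7 in R249C/R249C (SD, n = 3). The log2 fold change of the summed row over WT/WT was 0.20 (SE 0.42, 95% interval -0.74 to 1.15) in R249C/R249C and 0.50 (SE 0.33, interval -0.25 to 1.25) in WT/R249C. Without the libraries with contradictory labels it was 0.57 (SE 0.51) and 1.00 (SE 0.52), so the size of the summed difference depends on the libraries used. Summing was chosen after seeing the data.

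Setd1a, where the readthrough model starts, stood at 44.6, 23.2 and 8.86 CPM in WT/WT, between 5.84 and 13.6 CPM in WT/R249C and between 9.37 and 14.2 CPM in R249C/R249C. WT/WT replicates 1 and 2 were above all mutant libraries and WT/WT replicate 3 was not. For Setd1a the log2 fold change was -1.22 (SE 0.62) in R249C/R249C and -1.19 (SE 0.50) in WT/R249C, with an edgeR adjusted p of 1 in both, and it was -1.90 and -2.19 without the contested libraries. With Hsd3b7, Gm49388 and Setd1a summed, the log2 fold change was -0.37 (SE 0.33) in R249C/R249C and -0.04 (SE 0.27) in WT/R249C, and -0.47 and -0.17 without the contested libraries. The fold change was above 0 for the Hsd3b7 row and its sum with Gm49388, and below 0 for all 3 rows summed. The interval of the 3-row sum ran from -1.13 to 0.39 in R249C/R249C and from -0.64 to 0.57 in WT/R249C. These intervals and those of the sum with Gm49388 spanned 0, so the direction of either sum was not resolved. The antisense 9430064I24Rik row ran from 0 to 12.3 CPM, its highest value in R249C/R249C replicate 3. Whether the division of reads among these models accounts for the Hsd3b7 difference was not tested.

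**Figure D2:**
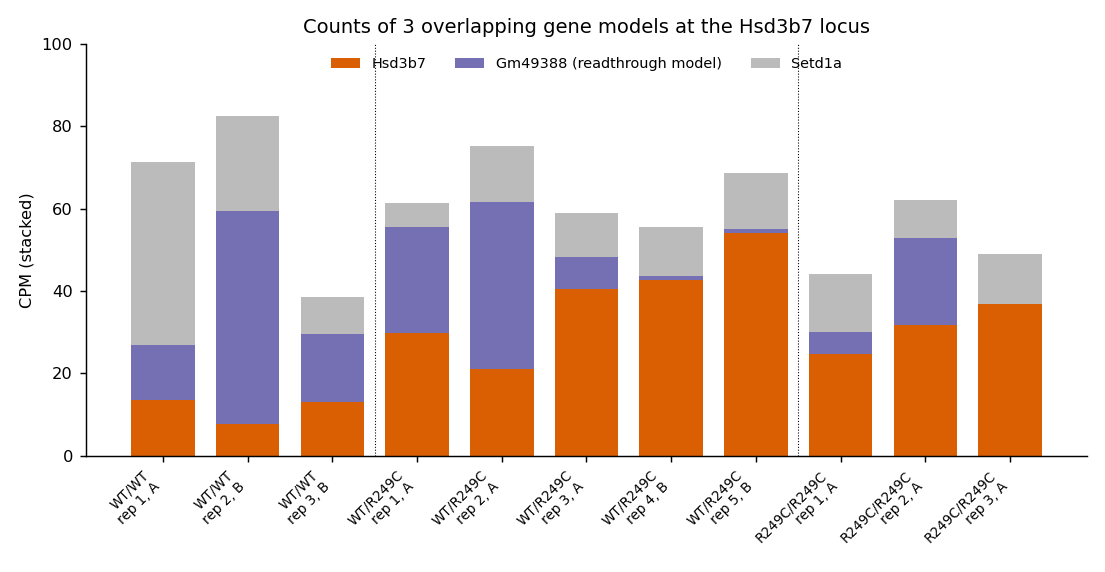
Stacked CPM (y axis, linear, from 0) of Hsd3b7, Gm49388 and Setd1a in each of the 11 libraries (x axis, with replicate and batch). The Hsd3b7 segment is shortest in the WT/WT libraries, while the height of Hsd3b7 and Gm49388 together, 26.9 to 61.5 CPM, overlaps among the genotypes.

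A difference in Hsd3b7 between the mutant genotypes was not detected. In the 6 batch A libraries, the log2 fold change of R249C/R249C over WT/R249C was 0.08 (SE 0.31, 95% interval -0.67 to 0.84), with an edgeR adjusted p of 1.00. The interval leaves room for a difference of up to 0.84 on the log2 scale. Among all genes tested in this comparison, 8.85% had groups that did not overlap, against 0 of the 7 oxysterol genes.

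The enzymes that make oxysterols were next. Ch25h, the cholesterol hydroxylase that starts the route to the Gpr183 ligand, stood at 28.4, 16.7 and 16.4 CPM in WT/WT. It stood at 44.2, 40.5, 13.6, 36.1 and 24.9 CPM in WT/R249C and at 23.7, 41.6 and 41.5 CPM in R249C/R249C. Most mutant libraries were above the WT/WT libraries, but WT/R249C replicate 3 was the lowest of all and the groups overlapped. Means were 20.5 ± 6.88 CPM in WT/WT (SD, n = 3), 31.8 ± 12.5 in WT/R249C (SD, n = 5) and 35.6 ± 10.3 in R249C/R249C (SD, n = 3). Over WT/WT the log2 fold change was 0.61 (SE 0.53, 95% interval -0.60 to 1.81) in R249C/R249C and 0.60 (SE 0.43, interval -0.38 to 1.58) in WT/R249C, with an edgeR adjusted p of 1 in both. It was 0.31 and 0.20 without the contested libraries. An antisense model, Gm26902, shares 11.5% of the Ch25h exon bases and ran from 3.24 to 11.02 CPM.

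Cyp7b1, the hydroxylase that completes the Gpr183 ligand, stood at 14.6, 6.72 and 12.2 CPM in WT/WT. It stood at 15.5, 13.9, 8.09, 17.8 and 9.62 CPM in WT/R249C and at 18.5, 7.61 and 16.4 CPM in R249C/R249C. Low and high libraries occurred in each genotype and the groups overlapped. The log2 fold change over WT/WT was 0.29 (SE 0.59) in R249C/R249C and 0.22 (SE 0.48) in WT/R249C, with an edgeR adjusted p of 1 in both, and it was -0.04 and -0.25 without the contested libraries.

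Cyp27a1, the mitochondrial sterol hydroxylase of the alternative bile acid route, stood at 5.91, 6.80 and 15.01 CPM in WT/WT. It stood at 7.91, 5.16, 0, 4.74 and 6.26 CPM in WT/R249C and at 6.47, 14.8 and 10.5 CPM in R249C/R249C. The library at 0, WT/R249C replicate 3, is the one with the smallest total, and its 0 counts allow up to 0.0495 CPM, whereas the other 10 libraries had between 520 and 2737 counts. Its log2 fold change over WT/WT was 0.60 (SE 1.76) in R249C/R249C and -0.72 (SE 1.37) in WT/R249C, and that of R249C/R249C over WT/R249C was 1.25 (SE 1.77). The edgeR adjusted p was 1 in the first pair and 1.00 in the last, and the groups overlapped in all of them. The values over WT/WT were 0.83 and -0.42 without the contested libraries.

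The receptor of the ligand varied most between libraries. Gpr183 stood at 0, 11.8 and 22.6 CPM in WT/WT, at 18.1, 3.78, 0, 12.2 and 2.25 CPM in WT/R249C and at 16.7, 0 and 10.6 CPM in R249C/R249C. One library of each genotype was at 0, which allows at most 0.0495 CPM, while the other 8 libraries had between 187 and 4116 counts. Gpr183 is known from B cells, T cells and dendritic cells. The libraries at 0 were WT/WT replicate 1, WT/R249C replicate 3 and R249C/R249C replicate 2. In that order the 6 B cell markers other than Igkc summed to 48.3, 53.2 and 22.7 CPM. Thymocyte markers summed to 209, 158 and 128 CPM. Of the 7 dendritic cell markers, 4, 5 and 4 were at 0, against at most 3 in any other library. Whether cell content accounts for the libraries without Gpr183 was not tested. The log2 fold change over WT/WT was 1.13 (SE 4.29, 95% interval -8.58 to 10.84) in R249C/R249C and 0.40 (SE 3.59, interval -7.73 to 8.53) in WT/R249C, with an edgeR adjusted p of 1 in both. Without the contested libraries it was 13.09 (SE 7.32) and 12.77 (SE 7.26), fitted against a wild type at 0, so that these values are no measure of size. These libraries set no useful limit on a change of Gpr183. Gpr183 lies within Ubac2, on the other strand and with no exon base shared.

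Of the nuclear receptors, Nr1h2 stood at 248, 119 and 115 CPM in WT/WT, at 105, 158, 113, 154 and 151 CPM in WT/R249C and at 149, 153 and 128 CPM in R249C/R249C. WT/WT replicate 1 was the highest library and the rest lay between 105 and 158 CPM. Relative to WT/WT the log2 fold change was -0.25 (SE 0.35, 95% interval -1.05 to 0.55) in R249C/R249C and -0.24 (SE 0.29, interval -0.89 to 0.41) in WT/R249C, with an edgeR adjusted p of 1 in both. Without WT/WT replicate 1 the direction turned, to 0.71 and 0.43. Without the contested libraries it was -0.79 (SE 0.29) and -1.02 (SE 0.29), within batch A -0.78 and -1.02, and with the replicate number as a block -0.82 and -1.07, none of which passed an edgeR adjusted p of 0.05. The sign and size of the Nr1h2 difference thus turn on WT/WT replicate 1. The difference between batches of the WT/R249C effect on Nr1h2, batch B minus batch A, was 1.50 on the log2 scale. The same difference was 1.21 for Hsd3b7, 0.89 for Cyp7b1, 0.78 for Ch25h, -0.47 for Cyp27a1 and -0.78 for Nr1h3. For Gpr183 it was -13.97, fitted against a batch A wild type at 0. The batch A side of each value rests on WT/WT replicate 1 alone. The batch B side of each rests on the contested libraries, so batch and genotype label cannot be told apart in them.

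Nr1h3 stood at 5.36, 16.9 and 5.22 CPM in WT/WT, at 8.85, 11.2, 11.1, 7.87 and 15.4 CPM in WT/R249C and at 9.40, 3.78 and 2.28 CPM in R249C/R249C. The lowest libraries were R249C/R249C replicates 2 and 3, while replicate 1 lay inside the WT/R249C range. The log2 fold change was -0.41 (SE 0.83) for R249C/R249C over WT/WT, 0.42 (SE 0.67) for WT/R249C over WT/WT and -0.95 (SE 0.71, 95% interval -2.66 to 0.77) for R249C/R249C over WT/R249C. The edgeR adjusted p was 1, 1 and 1.00. Without the contested libraries the values over WT/WT were -0.03 and 0.91. The ratio of Nr1h2 to Nr1h3 CPM ran from 7.00 to 46.4 in WT/WT, from 9.83 to 19.6 in WT/R249C and from 15.8 to 56.3 in R249C/R249C, so the genotypes overlapped in the balance of the receptors as well.

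All 7 genes passed the filter on low counts in each fit. Of the 6 genes other than Hsd3b7, 0 of 6 passed an adjusted p of 0.05 in any of the 3 comparisons, where edgeR called 0.0% of the 26980 genes tested against WT/WT and 0.0% of the 23695 tested between mutants. At an unadjusted p under 0.05, edgeR gave 865 genes for R249C/R249C, 940 for WT/R249C and 256 between mutants, and none was 1 of the 6 genes other than Hsd3b7. DESeq2 called 1.34%, 0.908% and 0.131% of genes at an adjusted p under 0.05, again none of the 6. The smallest DESeq2 adjusted p among the 6 was 0.911. The median log2 fold change of the 6 genes was 0.44 in R249C/R249C, 0.31 in WT/R249C and 0.22 between mutants, where that of all genes tested was -0.02, 0.02 and 0.01. Without the contested libraries the median of the 6 over WT/WT was 0.14 and -0.02, with 3 of 6 above 0 in each.

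**Figure D3:**
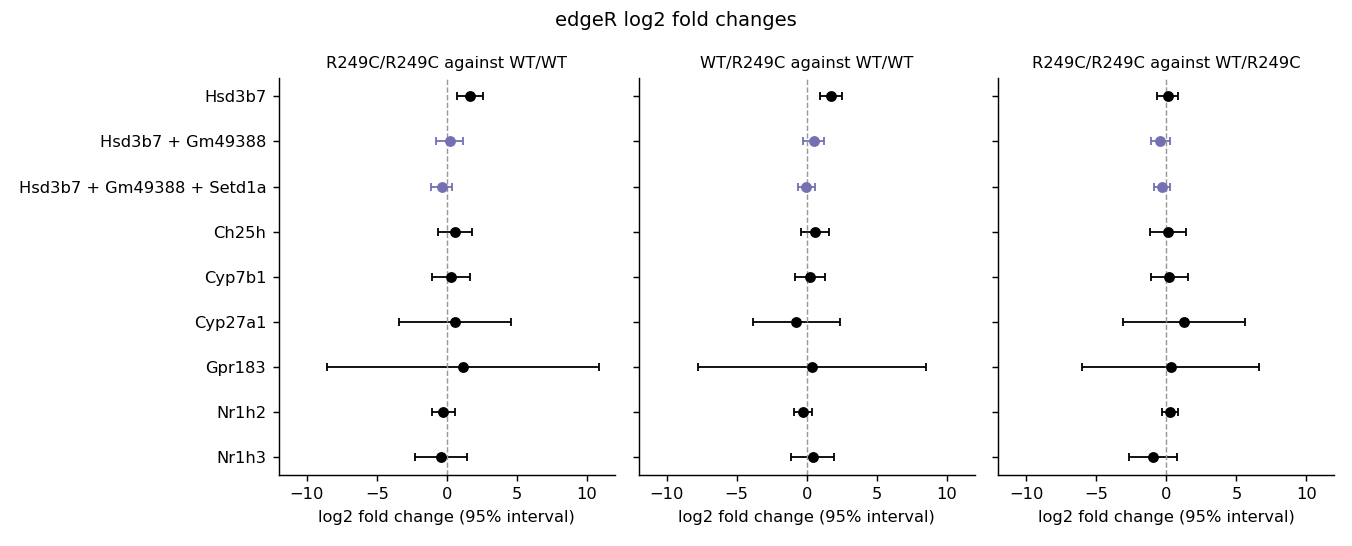
edgeR log2 fold change (x axis) of each of the 7 genes, and of the summed rows at the Hsd3b7 locus in violet, for the 3 comparisons; bars are 95% intervals. Hsd3b7 sits at 1.64 and 1.74 over WT/WT and its sum with Gm49388 at 0.20 and 0.50. The Gpr183 interval in R249C/R249C runs from -8.58 to 10.84.

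Per length, Nr1h2 was the most abundant of the genes, with a median of 44.3 CPM per kb of exon over the 11 libraries (range 31.2 to 74.1). Ch25h followed at 20.5 CPM per kb (9.80 to 31.8) and Hsd3b7 at 10.7 (2.74 to 19.5). Lower levels were seen for Cyp7b1 at 6.43, Gpr183 at 3.68, Nr1h3 at 3.52 and Cyp27a1 at 2.98 CPM per kb. The ranges of neighbours in this order overlapped in every case, while the range of Nr1h2 lay above that of Hsd3b7 in all libraries. The enzyme that breaks the ligand down and the enzymes that make it were thus all detected, the ligand-making Ch25h and Cyp7b1 in every library. The per-length level of Hsd3b7 carries the doubt about shared exons.

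**Figure D4:**
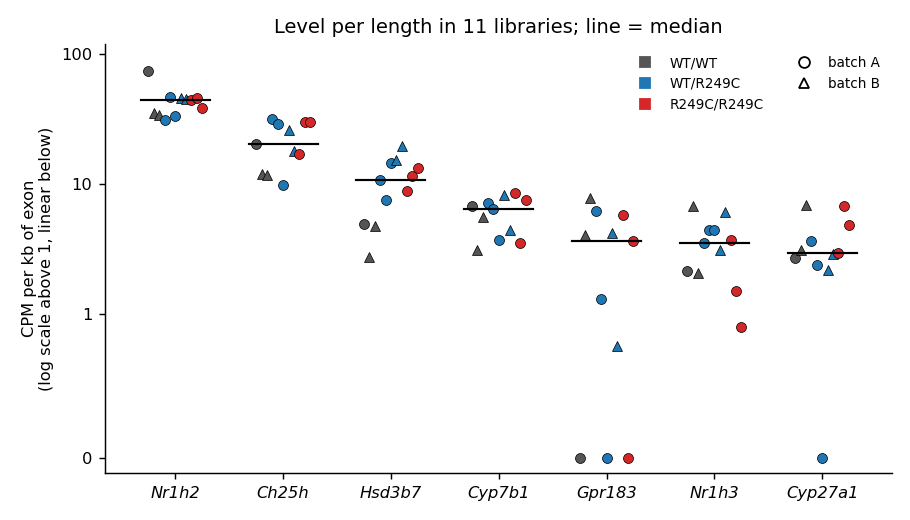
CPM per kb of exon (y axis, log scale above 1 and linear below) for each gene in the 11 libraries, coloured by genotype, with circles for batch A and triangles for batch B; the line is the median. Nr1h2 has the highest median, 44.3, and Cyp27a1 the lowest, 2.98, and points at 0 are libraries with no count.

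The other genes of the pathway were counted in lists. Of 22 bile acid and oxysterol enzymes, 18 were tested and 0 passed an adjusted p of 0.05 in edgeR, with a median log2 fold change of 0.28 in R249C/R249C and -0.12 in WT/R249C, or 0.12 and -0.21 without the contested libraries. None had an unadjusted p under 0.05, where 1.7% of all genes were higher and 1.51% lower at that level in R249C/R249C, and 1.91% and 1.57% in WT/R249C. Cyp7a1, the rate-limiting enzyme of bile acid synthesis, had 0 counts in all 11 libraries. Scp2, a sterol carrier of peroxisomes, had a mean of 218 ± 23.9 CPM in R249C/R249C against 171 ± 28.6 in WT/WT (SD, n = 3 each). Its log2 fold change was 0.29 (SE 0.18) and the groups overlapped. Cyp8b1, of smallest unadjusted p in the list, had means of 6.75 ± 6.81 CPM in R249C/R249C, 1.14 ± 1.56 in WT/R249C and 0.020 ± 0.018 in WT/WT. Each mutant genotype overlapped with WT/WT in Cyp8b1.

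Of 21 liver X receptor partners and targets, 20 were tested and 0 passed the adjusted threshold in edgeR, with a median log2 fold change of -0.14 in both mutant genotypes, or 0.02 and 0.12 without the contested libraries. Scd1, a desaturase that makes monounsaturated fatty acids, stood at 96.9, 63.3 and 98.9 CPM in WT/WT and at 42.4, 55.1 and 32.8 CPM in R249C/R249C. Scd1 had the smallest unadjusted p of the list, and its log2 fold change was -1.15 (SE 0.28) with an unadjusted p of 0.00282 and an edgeR adjusted p of 1. At an unadjusted p under 0.05, edgeR gave 1 of the 20 genes lower in R249C/R249C and 2 lower in WT/R249C, with 0 higher in each. Over all genes 1.51% and 1.57% were lower at that level. In WT/R249C the log2 fold change of Scd1 was -0.77 (SE 0.22), with an unadjusted p of 0.00746 and an edgeR adjusted p of 1, and WT/R249C replicate 3 at 66.8 CPM was above WT/WT replicate 2. Fasn, the fatty acid synthase, had a mean of 51.1 ± 6.95 CPM in WT/R249C (SD, n = 5) against 75.1 ± 13.4 in WT/WT (SD, n = 3), a log2 fold change of -0.56 with an edgeR adjusted p of 1. Scd1 gave -1.16 and -0.77, and Fasn -0.92 in WT/R249C, without the contested libraries. Both genes are targets of liver X receptors and of other lipid regulators.

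Of 13 sterol sensing genes, 13 were tested and 0 passed in edgeR, with medians of -0.24 in R249C/R249C and 0.04 in WT/R249C, or 0.23 and 0.41 without the contested libraries. Srebf2, the transcription factor of cholesterol synthesis, had a mean of 109 ± 31.7 CPM in R249C/R249C against 171 ± 40.6 in WT/WT (SD, n = 3 each), a log2 fold change of -0.76 (SE 0.30) with an edgeR adjusted p of 1. Hmgcs1, an early enzyme of cholesterol synthesis, had a mean of 100.1 ± 21.8 CPM in WT/R249C (SD, n = 5) against 63.3 ± 17.1 in WT/WT (SD, n = 3). Its log2 fold change was 0.68 (SE 0.25) with an edgeR adjusted p of 1. In R249C/R249C the mean was 84.9 ± 9.66 CPM (SD, n = 3), a log2 fold change of 0.48 (SE 0.31). As for Hsd3b7, every mutant library was above every WT/WT library. Across all genes tested, 3.42% were so split in R249C/R249C and 1.1% in WT/R249C. Without the contested libraries Srebf2 gave -0.76 in R249C/R249C, and Hmgcs1 gave 1.29 in WT/R249C with an edgeR adjusted p of 0.676. All 12 oxysterol binding proteins were tested and 0 passed, with medians of 0.19 in R249C/R249C and -0.23 in WT/R249C, or -0.04 and -0.22 without the contested libraries. Of the other 3-beta-hydroxysteroid dehydrogenases, 6 were tested and 0 passed. Nsdhl, the member that acts in cholesterol synthesis, had a mean of 36.9 ± 2.36 CPM in R249C/R249C against 29.2 ± 3.10 in WT/WT (SD, n = 3 each), with an edgeR adjusted p of 1. Every R249C/R249C library was above every WT/WT library in Nsdhl, while WT/R249C overlapped with WT/WT.

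**Figure D5:**
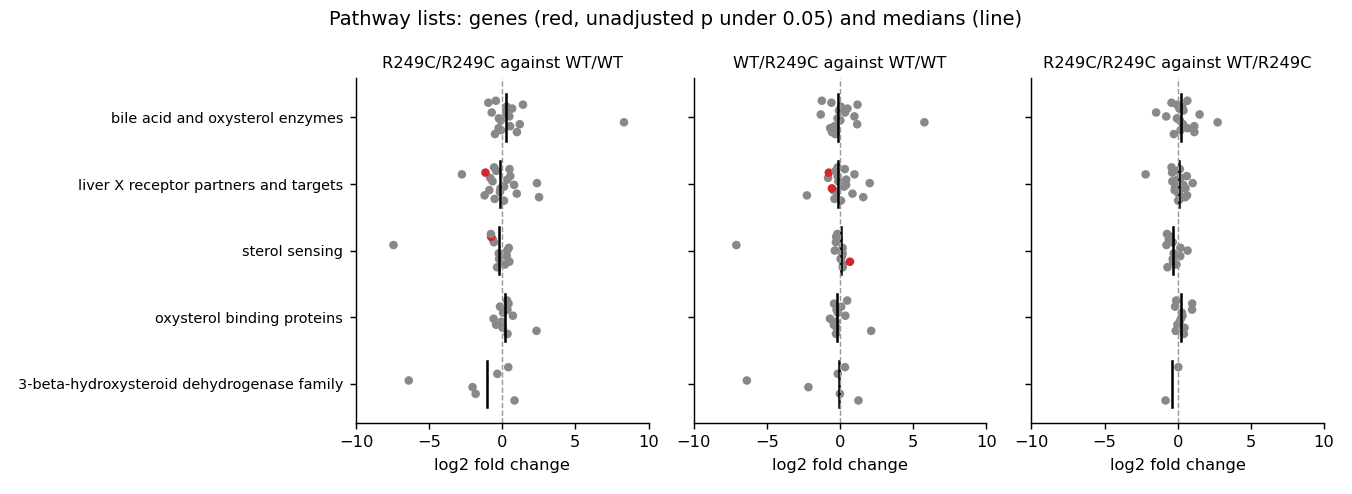
edgeR log2 fold change (x axis) of the genes of 5 pathway lists (rows) in the 3 comparisons; red points have an unadjusted p under 0.05 and black lines are list medians. The red points are Scd1 at -1.15 and Srebf2 at -0.76 in R249C/R249C, and Scd1 at -0.77, Fasn at -0.56 and Hmgcs1 at 0.68 in WT/R249C.

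Pearson's r of log2(CPM + 1) with Hsd3b7 over the 11 libraries was 0.35 for Ch25h, 0.19 for Cyp7b1, -0.28 for Cyp27a1, -0.21 for Gpr183, -0.07 for Nr1h2 and -0.11 for Nr1h3. In the 7 batch A libraries r was -0.87 for Nr1h2 and between -0.41 and 0.15 for the other 5, and without WT/WT replicates 2 and 3 it was -0.61 for Nr1h2. WT/WT replicate 1, low in Hsd3b7 and highest in Nr1h2, is the lone wild type of batch A. Among 12045 genes with a mean of at least 5 CPM, the 5 most like Hsd3b7 were Cops8, a subunit of the COP9 signalosome (r = 0.889), Zfp53, a zinc finger protein (0.861), Rasef, a Rab GTPase (0.859), Ecsit, a signalling adaptor and mitochondrial assembly factor (0.859), and Melk, a mitotic kinase (0.846). Cops8 ran from 40.2 to 67.9 CPM in WT/WT and from 73.2 to 89.7 CPM in the mutant libraries. Since Cops8 was picked for its likeness to Hsd3b7, itself picked on genotype, nothing is read from this split. In the 7 batch A libraries alone, 0 of these 5 were among the 5 most alike, so the ranking changed when the batch B libraries were left out. The points share libraries and depth, and these likenesses are descriptions over 11 libraries.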

How the data were processed

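The authors deposited counts, whole numbers per gene and library that are not normalized; FastQC, HISAT2 and StringTie were run against mm39, per the submitters' processing notes, with no versions. The annotation release and the step that made counts from alignments or coverage are not given in the sources used here. The word trimmed appears in the column names of batch A only. Gene identifiers were matched to symbols for 52073 of 56691 genes. CPM was computed over library totals. Tests were two-sided quasi-likelihood tests in edgeR 4.0.16 under R 4.3.3 (robust fit, filterByExpr, TMM scaling), and p-values were adjusted by Benjamini-Hochberg over every gene tested: WT/WT against each mutant in 1 fit of 11 libraries with a batch term, and R249C/R249C against WT/R249C in the 6 batch A libraries. Fold changes are therefore batch-adjusted and CPM means are not. The edgeR step was also run on simulated counts that held no batch effect, which does not show its power in these data. DESeq2 1.42.0, other scaling, no count filter, other batch handling, a replicate block and leaving out each library were alternatives. The titles label the libraries of each genotype as biological replicates. Nothing says how many mice a library pools, so p-values measure the spread between libraries as labelled. Limits on 0 counts use 3 counts of the library total; they cover counting error only, since reads carry no molecular identifiers. Named genes are the 7 genes, the 5 most like Hsd3b7, overlapping gene models, and up to 4 genes of smallest unadjusted p per list. The genes and lists were chosen with earlier results of these data known. Promoters and proteins were not used here.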

Additional observations from a re-analysis of the deposited data

How the results depend on the processing

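Of 391 alternatives for the levels and fold changes of the 7 genes, 36 turned direction, 16 of values without a test moved by more than their error, and 0 brought any of the other 6 genes across the threshold. The other 339 include 318 fold changes, of which 29 differed from the reported value by over 1.5 times, with Gpr183 over WT/WT at 14.12 and 13.93 under the replicate block. DESeq2 called 362, 245 and 31 genes in the 3 comparisons where edgeR called 0 in each. Hsd3b7 over WT/WT gave log2 fold changes, in R249C/R249C and WT/R249C, of 1.47 to 2.40 and 1.48 to 2.27 with 1 library left out; with 3 rows summed, -0.37 and -0.038, or -0.47 and -0.17 without the contested libraries. The labels' replicate numbers did not pair libraries (r of same-numbered deviations from -0.16 to 0.22, over 0.1 in 1 of 9 pairs); with the replicate block Hsd3b7 gave 1.10 and 0.99, 0 genes were called, Nr1h3 gave 0.34 in R249C/R249C over WT/WT and Gpr183 -0.078 between mutants. Hsd3b7 between mutants was -0.10 in all 11 libraries with batch, -0.44 with 2 rows summed, -0.30 with 3, and -0.11 to 0.27 with 1 library left out. In R249C/R249C over WT/WT, Cyp7b1 was -0.036 in batch A alone and -0.040 without the contested libraries. With those libraries as R249C/R249C, Cyp27a1 was -0.26 and Nr1h3 0.033. Gpr183 without a batch term was -0.24, and leaving out 1 library gave -0.82 to 5.22 for Gpr183, -0.36 to 0.71 for Nr1h2 and -1.22 to 0.079 for Nr1h3. In WT/R249C over WT/WT, Cyp7b1 was -0.25 in batch A alone and -0.25 without the contested libraries, Gpr183 was -0.57 without a batch term and -1.19 in batch B, and Nr1h2 was 0.43 in batch B. Leaving out 1 library gave -0.11 to 0.60 for Cyp7b1, -1.18 to 4.51 for Gpr183 and -0.46 to 0.43 for Nr1h2. Between mutants, Gpr183 was -0.10 with the contested libraries as R249C/R249C and Nr1h2 -0.0046 in all 11 libraries, and leaving out 1 library gave -0.28 to 0.42 for Ch25h, -0.067 to 0.53 for Cyp7b1 and -0.49 to 2.28 for Gpr183. The cause of these turns was not tested. Summed, Hsd3b7 and Gm49388 had means of 38.6, 52.8 and 39.9 CPM in WT/WT, WT/R249C and R249C/R249C. With 3 WT/WT libraries, only 1 of them in batch A, and intervals of over 1 log2 unit for most of the 7 genes, moderate differences could not be resolved.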
